A study of Rattus norvegicus with 2 samples.

Results

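The 9 genes described here code for subunits and regulators of the NADPH oxidases, out of 22093 named genes on the array. They were chosen by name, as the phagocyte oxidase genes Cybb, Cyba, Ncf1, Ncf4 and Rac2 and the non-phagocyte oxidase genes Nox1, Nox4, Duox1 and Noxa1. All 9 are on the array, with 1 probe set each. Their levels were measured in samples labelled as rat neural stem cells (NSCs), on 2 whole-transcript arrays. On the co-cultured array, the NSCs had been kept for 14 days on top of ectodermal mesenchymal stem cells, the EMSCs, taken from rats transgenic for green fluorescent protein, and had then been recovered by fluorescence-activated sorting. On the mono-cultured array, which served as control, the NSCs had grown alone for the same 14 days. All NSCs came from whole brains of SD rat embryos at day 13.5 and had formed neurospheres for 10 days before the cultures were split, and the labels give no transgene or mutation for them. The promoter behind the fluorescent transgene, the number of animals pooled, and whether the mono-cultured cells also went through the sorter or the serum-containing co-culture medium stand in none of the sources used here.

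NADPH oxidases carry electrons from NADPH across a membrane to oxygen and so make superoxide or hydrogen peroxide. The phagocyte enzyme is built on a membrane flavocytochrome of the catalytic subunit NOX2 (gene Cybb) and its partner p22phox (gene Cyba). It is silent until cytosolic subunits, among them those encoded by Ncf1 and Ncf4, and a Rac GTPase join it at the membrane. In the brain the phagocyte enzyme is best known from microglia, the resident macrophages. NOX1 and NOX4 also pair with p22phox, and DUOX1 needs a maturation factor of its own.

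Levels are given on the log2 scale of RMA. A difference means the level in co-culture less the level in mono-culture, so 1 unit is a factor of 2. With 1 array per condition the differences have no replicates behind them and could not be tested. The 95th percentile of 1153 probe sets named as negative controls, 6.64, is called the negative control level below. A gene was called kept if its higher level reached the median of all gene levels, 4.97, which held for 5 of the 9 genes. Between probe sets of 1 gene the differences had a pooled SD of 0.26 (478 kept genes), and the SD of the differences was 0.65 among negative and 0.44 among 399 positive control probe sets. These spreads are technical and do not stand in for replicates.

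The phagocyte oxidase genes had lower levels on the co-cultured than on the mono-cultured array, while the non-phagocyte oxidase genes were dim on both. These are levels of bulk samples that also carried markers of other cells, described below. They cannot be assigned to NSCs alone. At a threshold of 2-fold, 5 of the 9 genes were lower in co-culture, all of them phagocyte genes, 1 was higher, and 3 lay within 2-fold. Of all named genes, 3.23% passed 2-fold downward and 2.93% upward, and of the 11849 kept genes 5.54% downward and 5.04% upward. Of the negative control probe sets 9.54% passed it downward and 3.3% upward, and of the positive ones 4.01% and 0.501%. The median difference was -4.04 over the 5 phagocyte genes and 0.53 over the 4 non-phagocyte genes. Over all 9 it was -1.23, against 0.00 over all named genes.

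**Figure D1:**
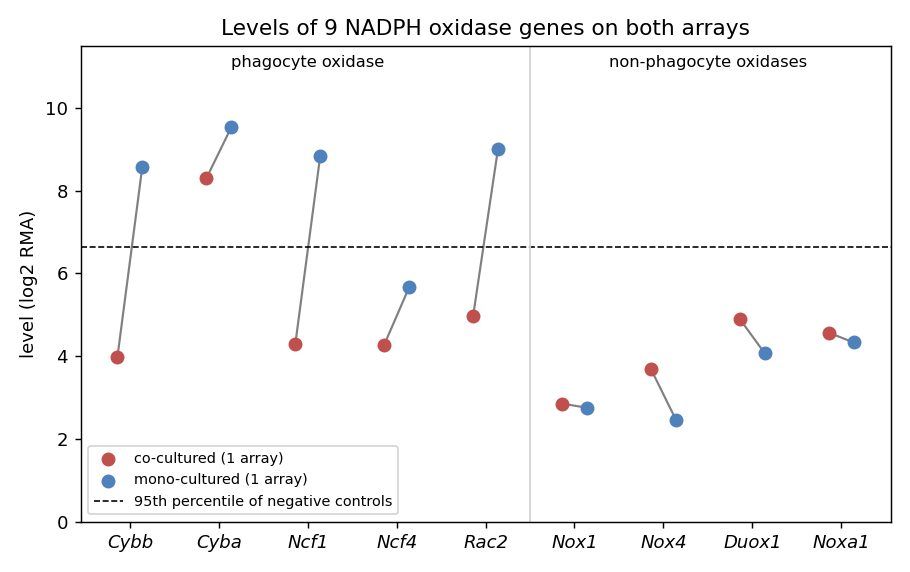
Levels of the 9 genes (log2 RMA, vertical axis) on the co-cultured array (left point of each pair) and on the mono-cultured array (right point), with 1 array each and no error bars. Cybb, Ncf1 and Rac2 lie above the dashed negative control level of 6.64 in mono-culture only, Cyba lies above it on both arrays, and the other 5 genes lie below it on both.

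Cybb, the catalytic core of the phagocyte enzyme, had a level of 3.98 in co-cultured cells, against 8.58 in mono-cultured cells. The difference of -4.60, 24.2-fold lower in co-culture, was the 26th lowest of all 22093 genes. The co-cultured level lay above 61.8% of the negative controls on its own array, and the mono-cultured level above 98.7% of those on the other. With levels below 6.64 raised to 6.64, the difference was -1.94.

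Cyba, which codes for the membrane partner that stabilises NOX2 and also serves NOX1 and NOX4, had a level of 8.30 in co-cultured cells, against 9.53 in mono-cultured cells. It was the only one of the 9 genes above the negative control level on both arrays, so its difference of -1.23 did not depend on a floor. That difference was the 505th lowest of all genes, and 64 of the 1153 negative controls differed by as much downward. The difference of Cybb minus that of Cyba was -3.37 as deposited and -0.71 with levels raised to 6.64, since the co-cultured level of Cybb lay below that level.

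Ncf1 codes for p47phox, the organiser that carries the cytosolic subunits to the membrane. Its level was 4.29 in co-cultured cells, against 8.83 in mono-cultured cells. The difference of -4.55 was the 28th lowest of all genes, and it was -2.19 with dim levels raised to 6.64. Ncf4 codes for p40phox, a cytosolic subunit that binds a membrane phosphoinositide. It had a level of 4.28 in co-cultured cells, against 5.66 in mono-cultured cells, a difference of -1.39. Both levels of Ncf4 lay below the negative control level, and 35 of the 1153 negative controls differed by as much downward. Of the 17134 genes at or below that level on both arrays, 2.06% passed 2-fold downward.

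Rac2, the Rac GTPase of blood cells that switches the assembled enzyme on, had a level of 4.97 in co-cultured cells, against 9.01 in mono-cultured cells. The difference of -4.04 was the 41st lowest, and it was -2.37 with dim levels raised to 6.64. Differences as low as those of Cybb, Ncf1 and Rac2, at least 16-fold, were found in 0.195% of all named genes and in 0 of the 1153 negative controls. The negative controls are mostly dim, which leaves them little room for such a fall, so that 0 says little. The widely expressed relative Rac1 did not follow Rac2: it had a level of 9.54 in co-cultured cells, against 9.64 in mono-cultured cells, a difference of -0.10.

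**Figure D2:**
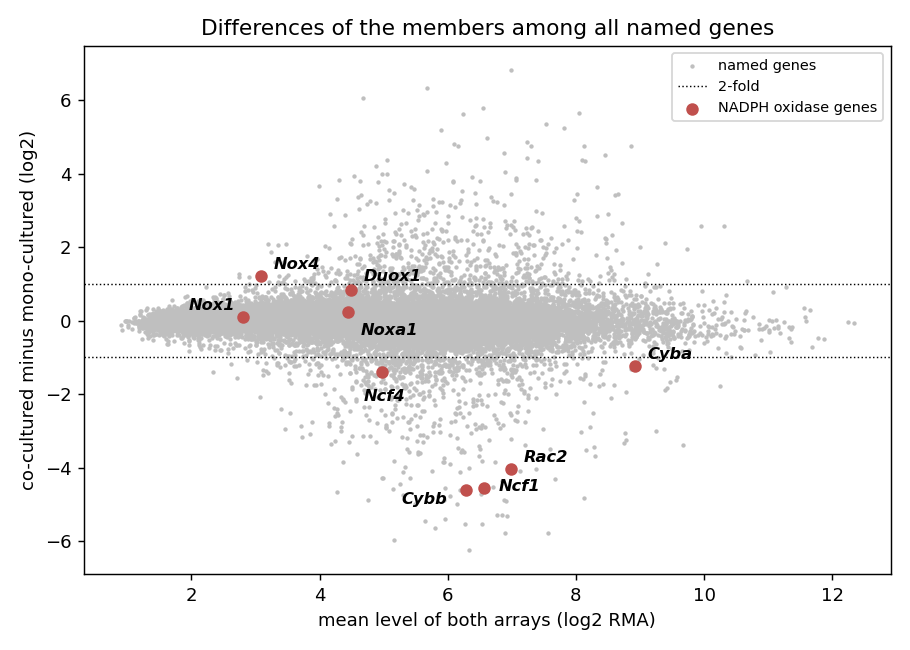
Difference of each named gene (co-cultured minus mono-cultured, log2, vertical axis) against its mean level on both arrays (log2 RMA, horizontal axis), with the 9 oxidase genes in red and dotted lines at 2-fold. Cybb, Ncf1 and Rac2 lie at -4.60, -4.55 and -4.04, near the lower edge of the cloud, whereas Cyba lies at -1.23 among bright genes and Nox1, Nox4, Duox1 and Noxa1 lie among dim ones.

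The non-phagocyte genes gave no signal above the negative control level on either array. Nox4, a constitutively active oxidase that releases mainly hydrogen peroxide and is known from kidney, vessel wall and fibroblasts, had a level of 3.69 in co-cultured cells, against 2.47 in mono-cultured cells. Its difference of 1.22 was the 476th highest, and 19 of the 1153 negative controls were higher by as much. Among the genes at or below the negative control level on both arrays, 1.63% passed 2-fold upward. With dim levels raised to 4.97 or to 6.64 the difference was 0, so no difference in Nox4 was detectable above these limits.

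Duox1, a dual oxidase with a peroxidase-like domain, had a level of 4.90 in co-cultured cells, against 4.07 in mono-cultured cells, a difference of 0.83 that fell short of 2-fold. Of the 1153 negative controls, 71 were higher by as much. Its maturation factor gene Duoxa1 showed a difference of 0.86, with a level of 5.24 in co-cultured cells, against 4.38 in mono-cultured cells. Both genes lay below 6.64 on both arrays, and with levels raised to 6.64 both differences were 0. Nox1, an oxidase known best from colon epithelium, had a level of 2.85 in co-cultured cells, against 2.75 in mono-cultured cells. Noxa1, the activator subunit of NOX1, had a level of 4.57 in co-cultured cells, against 4.33 in mono-cultured cells. The differences of Nox1 and Noxa1, 0.10 and 0.24, were smaller than the SD between probe sets of a gene.

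**Figure D3:**
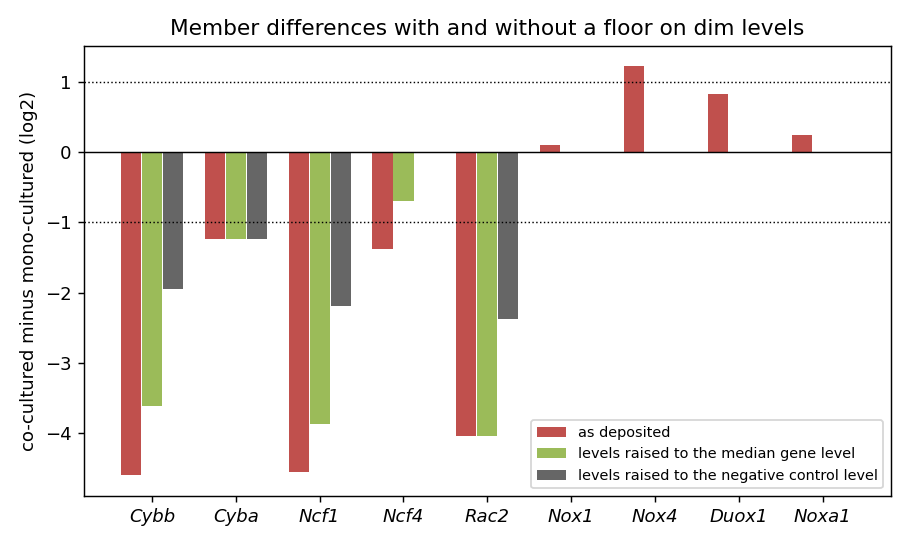
Differences of the 9 genes (co-cultured minus mono-cultured, log2) as deposited, with levels below the median gene level of 4.97 raised to it, and with levels below the negative control level of 6.64 raised to it. Bars start at 0, and no bar means a difference of 0. With the higher floor, Cybb, Cyba, Ncf1 and Rac2 remain at least 2-fold lower, and Ncf4 and the non-phagocyte genes are at 0. The share of all named genes past 2-fold with this floor was not computed.

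The 250 bases before the start of Cybb, Cyba, Ncf1 and Nox4 are shown because the first 3 of these genes were lower together and Nox4 was the gene that was at least 2-fold higher. The sequences are RefSeq's (GRCr8), read 5' to 3' on the strand of the gene. Capitals mark matches, on either strand, to the PU.1 core GAGGAA, the GC box GGGCGG, the CCAAT box CCAAT and the AP-1-like pattern TGANTCA. The last allows any base in the middle and is looser than the AP-1 consensus.
Cybb, chrX:16065066-16065315, minus strand: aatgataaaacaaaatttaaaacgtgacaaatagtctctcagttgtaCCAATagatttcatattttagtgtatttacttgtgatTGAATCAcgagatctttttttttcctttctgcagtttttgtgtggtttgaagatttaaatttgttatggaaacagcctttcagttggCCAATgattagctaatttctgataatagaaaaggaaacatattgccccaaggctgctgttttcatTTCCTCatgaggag
Cyba, chr19:67404215-67404464, minus strand: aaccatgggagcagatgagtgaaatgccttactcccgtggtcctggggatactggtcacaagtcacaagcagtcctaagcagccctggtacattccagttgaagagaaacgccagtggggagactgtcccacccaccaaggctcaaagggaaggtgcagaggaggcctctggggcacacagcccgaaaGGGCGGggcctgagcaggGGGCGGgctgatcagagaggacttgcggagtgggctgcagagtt
Ncf1, chr12:28121635-28121884, plus strand: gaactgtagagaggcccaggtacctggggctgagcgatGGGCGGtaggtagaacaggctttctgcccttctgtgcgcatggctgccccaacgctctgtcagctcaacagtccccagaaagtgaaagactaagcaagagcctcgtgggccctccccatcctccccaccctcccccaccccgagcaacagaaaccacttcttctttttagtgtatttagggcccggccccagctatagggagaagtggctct
Nox4, chr1:150313639-150313888, plus strand: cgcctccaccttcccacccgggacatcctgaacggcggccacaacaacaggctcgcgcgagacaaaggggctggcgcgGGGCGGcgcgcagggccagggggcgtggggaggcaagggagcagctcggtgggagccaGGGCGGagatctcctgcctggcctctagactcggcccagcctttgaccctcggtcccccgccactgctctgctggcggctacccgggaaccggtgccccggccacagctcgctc
Of the 9 genes 7 were matched by symbol, and Ncf4 and Rac2 were not analysed in this way. PU.1, encoded by Spi1, is the transcription factor known to drive phagocyte oxidase genes. Its core was found once in the Cybb window, 14 bases before the start and on the opposite strand, and in 23.3% of all 33469 promoters. No match lay in the windows of Cyba, Ncf1, Nox4 and Noxa1, while Nox1 and Duox1 held 1 match each. With Ncf4 and Rac2 missing and the non-phagocyte genes below the negative control level, these counts cannot relate the letters to the differences. The GC box occurred 2 times in Cyba, 2 times in Nox4 and 1 time in Ncf1, and in 30.5% of all promoters. Cybb was the AT-rich window, with 32.0% G and C against 59.6% in Cyba, 58.4% in Ncf1 and 72.8% in Nox4 (median of all promoters 51.2%). It alone of the 7 held the CCAAT box (2 matches, 34.0% of all promoters) and the AP-1-like pattern (1 match, 6.34%). The middle base of that match is A, where the AP-1 consensus has C or G. No matches of different motifs overlapped, and a match is a description of letters only.

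Beyond the 9 genes, 17 other oxidase and assembly genes were on the array, of which 12 were kept. Of these 12, 3 were at least 2-fold lower, 0 were 2-fold higher and 9 lay within 2-fold, with a median of -0.23 beside -0.06 for all kept genes. Hvcn1, the proton channel that offsets the charge moved by the phagocyte oxidase, had the largest difference, with a level of 4.56 in co-cultured cells, against 6.38 in mono-cultured cells, both below 6.64. Arhgdib, the blood-cell inhibitor that holds Rac proteins in the cytosol, had a level of 6.23 in co-cultured cells, against 7.56 in mono-cultured cells, and Rac3, the neuronal Rac, differed by -1.09. Cybc1, a chaperone of the NOX2 flavocytochrome, differed by -0.75. With levels raised to 6.64, 0 of the 12 were at least 2-fold lower, with Hvcn1 at 0, Arhgdib at -0.92 and Rac3 at -0.53. Elsewhere in this list Rap1a (0.21), Cdc42 (-0.01) and P4hb (-0.17) lay close to 0.

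Receptors that trigger the phagocyte oxidase were lower as well. Of 16 kept receptor genes, 14 were at least 2-fold lower and 0 were 2-fold higher, with a median of -3.37. Over all 18 on the array the counts were the same and the median was -3.06. The lower genes were kept through their mono-cultured level, the higher of their levels. Of all kept genes, 5.54% were at least 2-fold lower. The fungal sensor gene Clec7a had a level of 2.99 in co-cultured cells, against 8.62 in mono-cultured cells. The immunoglobulin receptor gene Fcgr2b, an inhibitory member of its family, differed by -5.54. The adaptor Tyrobp differed by -4.90 and the integrin Itgam, a complement receptor chain, by -4.86. Of the 16, 8 were at least 2-fold lower once levels were raised to 6.64. Of 20 kept genes of the signalling steps between receptor and oxidase, 10 were at least 2-fold lower and 10 lay within 2-fold (median -1.19). The lower ones were led by the lipid kinase gene Pik3cg (-3.82), the Rac activator Dock2 (-3.61), the Src-family kinase Lyn (-3.57) and the actin regulator Was (-3.03). With levels raised to 6.64, 2 of the 20 were at least 2-fold lower, Lyn (-1.36) and the protein kinase C gene Prkcd (-1.35), and Pik3cg, Dock2 and Was were at -0.43, -0.73 and -0.75.

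Of 12 transcription factor genes with a role in phagocytes, all kept, 4 were at least 2-fold lower, 1 was at least 2-fold higher and 7 lay within 2-fold (median -0.30). Spi1 had a level of 4.82 in co-cultured cells, against 6.34 in mono-cultured cells, below the negative control level on both arrays. Irf8, a partner of PU.1 in myeloid cells, had a level of 5.08 in co-cultured cells, against 7.58 in mono-cultured cells, and Ikzf1 differed by -2.07. With levels raised to 6.64 none of the 12 was at least 2-fold lower (Irf8 was at -0.94, Ikzf1 at -0.03 and Spi1 at 0). Runx1, which also acts outside blood cells, was the 1 higher gene, also with the floor, with a level of 8.48 in co-cultured cells, against 6.48 in mono-cultured cells.

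**Figure D4:**
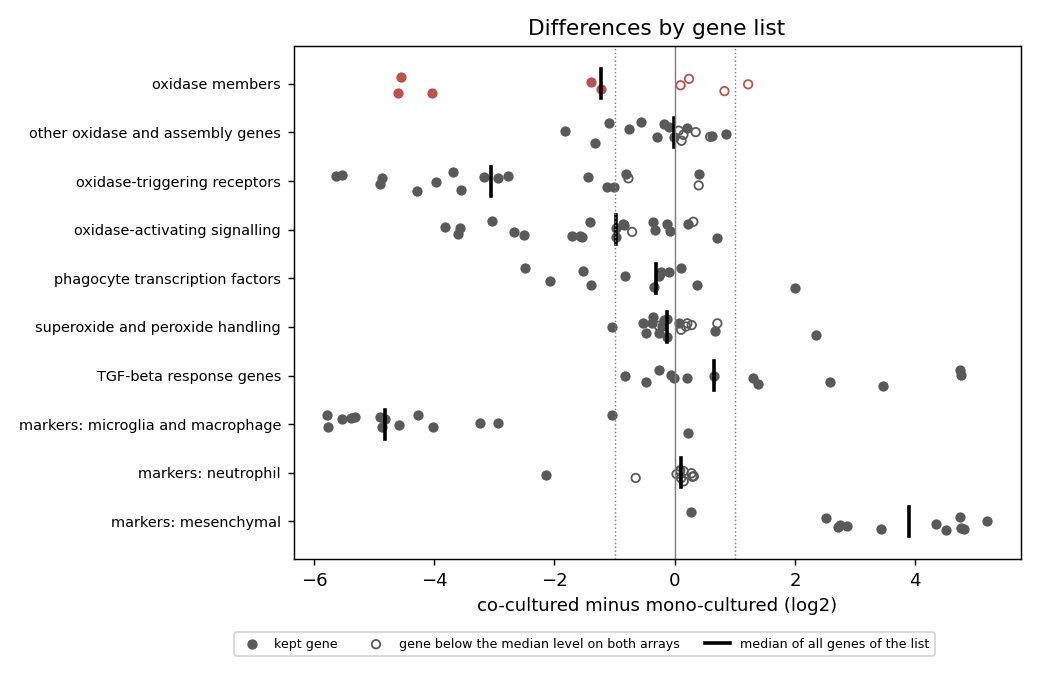
Difference of each gene (co-cultured minus mono-cultured, log2, horizontal axis) by list, with filled points for kept genes, open points for genes below the median gene level on both arrays, and a bar at the median of all genes of the list. Oxidase-triggering receptors (median over all on the array -3.06) and microglia and macrophage markers (-4.82) lie to the left, mesenchymal markers (3.89) to the right, and the 9 oxidase genes (in red) spread from -4.60 to 1.22.

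Markers of some other cell types were lower in co-culture as well, mainly those of microglia and macrophages and those of astrocytes. Of 15 microglia and macrophage markers, all kept, 14 passed 2-fold downward and 1, Tmem119, lay within 2-fold. Only C1qa lay above 6.64 on the co-cultured array, against 13 of the 15 on the mono-cultured array. The floor at 6.64 left 11 of the 15 at least 2-fold lower. The log2 of their summed linear levels was 8.99 in co-cultured cells, against 13.16 in mono-cultured cells. In bulk samples such as these, fewer cells of a type and less RNA per cell cannot be told apart, and the part of microglia in the oxidase differences was not tested. Markers of neutrophils, the other main carriers of the phagocyte oxidase, were at or below 6.64 on both arrays for 11 of 11 genes, and the markers of T, B and NK cells for 9 of 9. The neutrophil list held 1 kept gene, the growth factor receptor gene Csf3r, which differed by -2.13. Of 10 endothelial markers, all below 6.64 on both arrays, 3 were kept and 1 of these passed 2-fold downward, Pecam1 (-1.48). Among kept markers of neural cells, 7 of 9 astrocyte genes passed 2-fold downward and 1, Gja1, upward, 2 of 7 neuronal genes passed it downward, and 10 of 10 oligodendrocyte lineage genes lay within 2-fold. Above a floor of 6.64, 5 astrocyte and 1 neuronal gene passed it downward and 0 upward, and Csf3r and Pecam1 were at 0. The 3 kept list genes with differences closest to that of Cybb, over 2 arrays, were P2ry12 (-4.58), Cd68 (-4.82) and Itgam. The 161 candidates were the genes of these lists alone, which are rich in microglia and phagocyte genes, and with the floor P2ry12 differed by -0.79, against -1.94 for Cybb.

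Mesenchymal markers, the class of the feeder cells, moved the other way, with 11 of 12 at least 2-fold higher in co-culture. On the co-cultured array 11 of the 12 lay above 6.64, against 2 on the mono-cultured array, and the log2 of their summed linear levels was 13.28 in co-cultured cells, against 9.51 in mono-cultured cells. Of 13 genes of TGF-beta signalling and its targets, a pathway known to induce Nox4 in fibroblasts, 6 passed 2-fold upward and 0 downward, with a median of 0.65, led by Acta2 (4.76), Col1a1 (4.75), Ccn2 (3.47) and Fn1 (2.57). Above the floor of 6.64, 11 of the 12 mesenchymal markers and 4 of the 13 TGF-beta genes were at least 2-fold higher. Acta2 and Col1a1 stand on both lists and are counted in each. The part of the feeder cells in the level of Nox4 was not tested. The labelled cell type was checked on 9 NSC markers, of which 5 lay above 6.64 on each array. Among them Nes had a level of 8.25 in co-cultured cells, against 7.45 in mono-cultured cells, Fabp7 differed by -1.95, and Pax6 lay below 4.97 on both arrays.

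Genes that dispose of superoxide and peroxide did not follow the phagocyte oxidase. Of 13 kept genes, 11 lay within 2-fold, with a median of -0.22. The exceptions were Sod3, the secreted superoxide dismutase, with a level of 8.43 in co-cultured cells, against 6.09 in mono-cultured cells, and the peroxidase gene Gpx1, with a level of 8.46 in co-cultured cells, against 9.50 in mono-cultured cells. Both also passed 2-fold with levels raised to 6.64. Catalase (Cat) differed by 0.67 and the peroxiredoxin gene Prdx6 by -0.53. Mpo, the neutrophil peroxidase that turns the oxidase product into hypochlorous acid, was dim, with a level of 3.85 in co-cultured cells, against 3.75 in mono-cultured cells.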

How the data were processed

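Total RNA of 2 rat NSC samples was biotin-labelled with a whole-transcript kit and put on 1 array each, per the labels' protocols. The table deposited by the authors gives a log2 value for each transcript cluster. RMA (background correction, quantile normalization and probe summary) is named in the submitters' processing notes, with its version not given in the sources used here. Quantile normalization hides changes in total RNA, and precision is limited by 1 array per group.

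The platform annotation gave 1 symbol to 23446 probe sets, which were averaged by gene to 22093 genes. Counts are of genes at or past 2-fold, with no p-value. Each of the 9 members is named. Of each of the 8 other gene lists up to 4 kept genes with the largest absolute difference are named, with Rac1, Spi1 and Hvcn1 fixed. The 9 marker lists are given mainly as counts, and only some of their genes with the largest differences are named. Also named are the 3 kept list genes closest in difference to Cybb. Those closest to Nox4 were left out, as its levels lay below the negative control level. Chosen after their values were seen were Cybc1, Rap1a, Cdc42, P4hb, Prkcd, Tmem119, C1qa, Gja1, Pax6 and Mpo. The members and lists were chosen with earlier results of these data known, and 5 genes stand on more than 1 list. These are Itgam and Tyrobp (receptors and microglia markers), Mpo (peroxide handling and neutrophil markers), and Acta2 and Col1a1 (TGF-beta genes and mesenchymal markers). Alternatives were median centring, quantile normalization, a loess fit (span 0.4), floors on dim levels, other probe set rules and thresholds, and kept members only. The floor at the median gene level, and the floor at the negative control level for the other lists, were added after seeing the data. Gene averaging, rescaling and counting were tested on simulated data, with less noise than the technical spreads given above and with changes larger than 2-fold. The kept filter and the floors were not part of that test. Python 3.11.15, numpy 2.4.6, pandas 2.3.3 and statsmodels 0.14.6 were used.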

Additional observations from a re-analysis of the deposited data

How the results depend on the processing

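Under median centring, quantile normalization, loess, and both probe set rules, each of the 9 differences moved by less than 0.26, Cybb lying between -4.60 and -4.53 and Nox4 between 1.15 and 1.23. The probe set rules cannot move genes with 1 probe set. The deposited values were already quantile-normalized by RMA, so the other rescalings could move them only little. The median of all named genes shifted by at most 0.03. With levels raised to 6.64 the median of the 9 genes was 0, with levels raised to 4.97 (chosen after seeing the data) -0.69, and over kept members only -4.04, by construction. The number at least 2-fold higher was 0 under each of these 3. It was 2 at 1.5-fold, where the share of all genes was not computed, and 0 at 4-fold. At 4-fold 3 genes were lower, Cybb, Ncf1 and Rac2. Of all named genes 1.04% passed 4-fold downward and 0.978% upward, and of the kept genes 1.91% and 1.8%. Counts for the other gene lists were equal with and without the filter on dim genes, and their counts with levels raised to 6.64 stand beside each list. The share of all named genes past 2-fold with levels raised to 6.64 was not computed, so these counts have no background beside them. By construction, the 17134 named genes at or below that level on both arrays have a difference of 0 there. No paired analysis was possible because each condition has 1 array. Signal over background limits Ncf4 and the non-phagocyte genes, which lay below the negative control level on both arrays.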

Other observations

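Genes that supply NADPH, the electron donor of the oxidases, mostly lay within 2-fold. Of 11 kept genes, 2 passed 2-fold downward and 0 upward, with a median of -0.70 beside -0.06 for all kept genes, and with levels raised to 6.64 the counts were 0 and 0 and the median -0.30. All 11 had a negative difference, as had 55.8% of the kept genes. Nadk2, the mitochondrial NAD kinase, had a level of 5.25 in co-cultured cells, against 6.46 in mono-cultured cells, and the malic enzyme gene Me3 had a level of 4.51 in co-cultured cells, against 5.64 in mono-cultured cells, so both lay below the negative control level of 6.64. Of bright genes, the pentose phosphate enzyme gene Taldo1 had a level of 8.29 in co-cultured cells, against 9.20 in mono-cultured cells, and the mitochondrial isocitrate dehydrogenase gene Idh2 had a level of 6.93 in co-cultured cells, against 7.78 in mono-cultured cells. The median difference of the positive control probe sets was -0.16.

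Other enzymes that make oxidants were mostly dim, with 4 of 9 kept. Xdh, which makes superoxide and peroxide as xanthine oxidase, was at least 2-fold higher, with a level of 6.03 in co-cultured cells, against 4.22 in mono-cultured cells, below 6.64 on both arrays, and at a difference of 0 with the floor. The monoamine oxidase genes Maob and Maoa differed by -0.84 and -0.22, and Aox1 differed by -0.09.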
